A study of Mus musculus with 30 samples.

Results

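Perm1, the PGC-1 coactivators Ppargc1a and Ppargc1b, the estrogen-related receptors Esrra and Esrrg, and the mitochondrial factors Nrf1 and Tfam were followed in 2 muscles of mice with a severed spinal cord. They were chosen by name as regulators of mitochondrial genes, with earlier results of these data known. All 7 were among the 11249 genes of the mRNA table. In gastrocnemius, Perm1 was lower than in sham mice after both injuries, 12.7-fold after the lower and 2.83-fold after the higher. Ppargc1a and Esrra were lower there after the lower injury. Ppargc1b was lower there after both injuries. In triceps, Perm1, Ppargc1a, Esrra and Esrrg were higher after the higher injury than in sham mice. Nrf1 was higher after both injuries in gastrocnemius and after the higher injury in triceps, and Tfam passed the main test in no comparison. Some calls were lost in alternative fits. Among them were those of Nrf1 in both muscles, of Perm1 after the higher injury in both muscles and of Esrra in triceps.

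The series compares 3 surgery groups of male mice, all sampled 3 days after surgery: transection of the cord at thoracic level T3, transection at T9, and sham surgery. Strain, age and genotype are not given in the labels. The gastrocnemius, a calf muscle of the hind limb, was taken from 4 mice per group, and the triceps brachii, a forelimb muscle, from 6 mice per group. Both lesions lie above the spinal segments of the hind limb and below those of the forelimb, and the title of the series asks how hormonal tone that depends on lesion level relates to muscle wasting.

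PGC-1 coactivators carry no DNA-binding domain of their own and act by docking on transcription factors, among them the estrogen-related receptors (ERRs) and Nrf1. ERRs bind sites near many genes of the respiratory chain, the TCA cycle and fatty acid oxidation, and Nrf1 (nuclear respiratory factor 1) drives further respiratory genes together with Tfam, the protein that packages and transcribes mitochondrial DNA. Perm1 is a muscle protein induced by PGC-1 and ERRs, and it is required for normal oxidative capacity in mouse muscle. PGC-1α itself is raised by exercise and by adrenergic signalling through cyclic AMP and falls when muscle is denervated or unloaded.

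Each library held 13293557 to 23398801 reads in the genes of the table, except triceps T3 replicate 5 with 88826845. Levels are given as CPM, reads per 1000000 reads of a library, and changes as differences of the deposited log2 values, which carry an offset of 0.5 reads. The 10 myofibre markers, among them Acta1 and Ckm, summed to between 93530 and 163800 CPM per library, so skeletal muscle RNA was abundant in every library. Of the libraries, 4 had the lowest median log2 value: triceps sham replicate 3 (3.29) and replicate 4 (3.55), gastrocnemius sham replicate 4 (3.66) and triceps T9 replicate 1 (3.67). The other 26 lay between 3.71 and 4.33. Numbers in the sample descriptions, read as mouse numbers, tie 24 libraries to 12 mice with both muscles. The muscles of sham mouse 3 deviated in opposite directions from their group means (r = -0.75), so that pairing may be wrong. The median of all genes also differed between groups. It was higher than in sham by 0.27 after T3 and 0.40 after T9 in gastrocnemius, and by 0.23 after T3 and 0.17 after T9 in triceps, all in log2 units. Values with each library centred on its own median are therefore given where they change a call. In gastrocnemius, the library medians lay between 4.27 and 4.33 after T9 and between 3.66 and 4.06 in sham, without overlap. A fit with the library median as a covariate therefore cannot fully separate that median from surgery there.

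Perm1 is encoded on chromosome 4 (chr4:156215868-156221307, plus strand, GRCm38). Ppargc1a lies on chromosome 5 (chr5:51454250-51567726, minus strand), Esrrg on chromosome 1 (chr1:187608791-188214885, plus strand) and Tfam on chromosome 10 (chr10:71225464-71238280, minus strand). Esrra lies on chromosome 19 (chr19:6910977-6921813, minus strand) and Nrf1 on chromosome 6 (chr6:30047988-30153458, plus strand). The promoter stretches of 4 members are shown because each holds letters of a site by which such genes are commonly controlled, and because 3 of them belong to members that changed while Tfam did not pass the test. All are from RefSeq (GRCm38.p6), 5′ to 3′ on the strand of the gene, and lie within 250 bases before a RefSeq start. The Perm1 and Ppargc1a stretches end where the GENCODE gene begins, whereas those of Esrrg and Tfam are the match and its flanks, inside the GENCODE gene. Capitals mark the match.
Perm1: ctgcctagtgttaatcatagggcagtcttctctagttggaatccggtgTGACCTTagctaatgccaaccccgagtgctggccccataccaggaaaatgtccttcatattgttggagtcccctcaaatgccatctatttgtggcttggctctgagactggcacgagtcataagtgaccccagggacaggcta
Ppargc1a: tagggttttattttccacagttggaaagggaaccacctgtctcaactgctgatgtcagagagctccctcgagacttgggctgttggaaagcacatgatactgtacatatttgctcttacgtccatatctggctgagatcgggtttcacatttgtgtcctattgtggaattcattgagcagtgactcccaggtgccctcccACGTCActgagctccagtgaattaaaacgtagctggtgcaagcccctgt
Esrrg: ctaaaactttgCTATTTATAGtctacgcc
Tfam: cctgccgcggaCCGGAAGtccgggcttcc

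The Perm1 stretch (chr4:156215677-156215867) held the ERR core AAGGTCA on the opposite strand, starting 202 bases before the RefSeq start. The Ppargc1a stretch (chr5:51567727-51567975) held the core TGACGT of the cyclic AMP element on the opposite strand, 50 bases before the start. In the Esrrg stretch (chr1:187608973-187609001) a MEF2 site (CTA and TAG with any 4 bases between) lay 22 bases before the start, and in the Tfam stretch (chr10:71238074-71238102) an ETS site, CCGGAAG, lay 47 bases before it. The windows of Esrra and Nrf1, members that also changed, held no match and are not shown. The search covered both strands of 10 windows of 6 members. The letters of the full ERR element (TNAAGGTCA), of the Nrf1 site (GCGC, any base, TGCGC) and of the full cyclic AMP element (TGACGTCA) were found in none of them. Of 32851 RefSeq windows of the same length, 4.08% held AAGGTCA, 6.47% TGACGT, 3.20% the MEF2 site, 6.91% CCGGAAG, 1.14% TNAAGGTCA, 3.74% the Nrf1 site and 1.55% TGACGTCA. The cores AAGGTCA and TGACGT lie within the full elements and were added after the sequences had been seen. These matches describe letters only and say nothing on binding in these muscles.

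Perm1, the muscle partner of PGC-1 and the ERRs, was lower after both injuries in gastrocnemius. It stood at 84.8, 170.1, 44.99 and 47.7 CPM after T3, at 21.5, 24.5, 12.8 and 11.2 CPM after T9, and at 235.0, 310.2, 226.9 and 120.2 CPM in sham. Each T9 library lay below each T3 and each sham library, while T3 replicate 2 reached into the sham range. The change from sham was -1.50 ± 0.41 after T3 (log2 ± SE, limma adjusted p = 0.013) and -3.67 ± 0.41 after T9 (adjusted p = 5.1e-05). Of the 11248 genes tested, 5 fell further than Perm1 after T9. Between the injuries, Perm1 was 4.50-fold higher after T3 than after T9 (log2 difference 2.17 ± 0.41, adjusted p = 0.023). That call was lost without T3 replicate 1 or 2 or T9 replicate 1, 3 or 4 (adjusted p = 0.056 to 0.092), and the T3 call against sham with the library median as a covariate (-1.74, adjusted p = 0.057).

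In triceps, Perm1 was higher after T3. It ranged from 208.9 to 613.2 CPM after T3 (median 301.2), from 173.7 to 353.9 CPM after T9 (median 240.5) and from 65.9 to 261.0 CPM in sham (median 212.9). The groups overlapped, and 3 of 6 T3 libraries were above the highest sham library. The T3 group was 2.09-fold higher than sham (1.07 ± 0.30, adjusted p = 0.017). Triceps sham replicates 3 and 4, of low median, had the lowest Perm1 at 70.1 and 65.9 CPM, and without the 4 libraries of low median the difference was 0.55 (adjusted p = 0.11). It was 0.46 with the library median as a covariate (adjusted p = 0.14), and with no term for the label number the adjusted p was 0.053. After T9 the value was 0.63 ± 0.30 (adjusted p = 0.47).

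**Figure D1:**
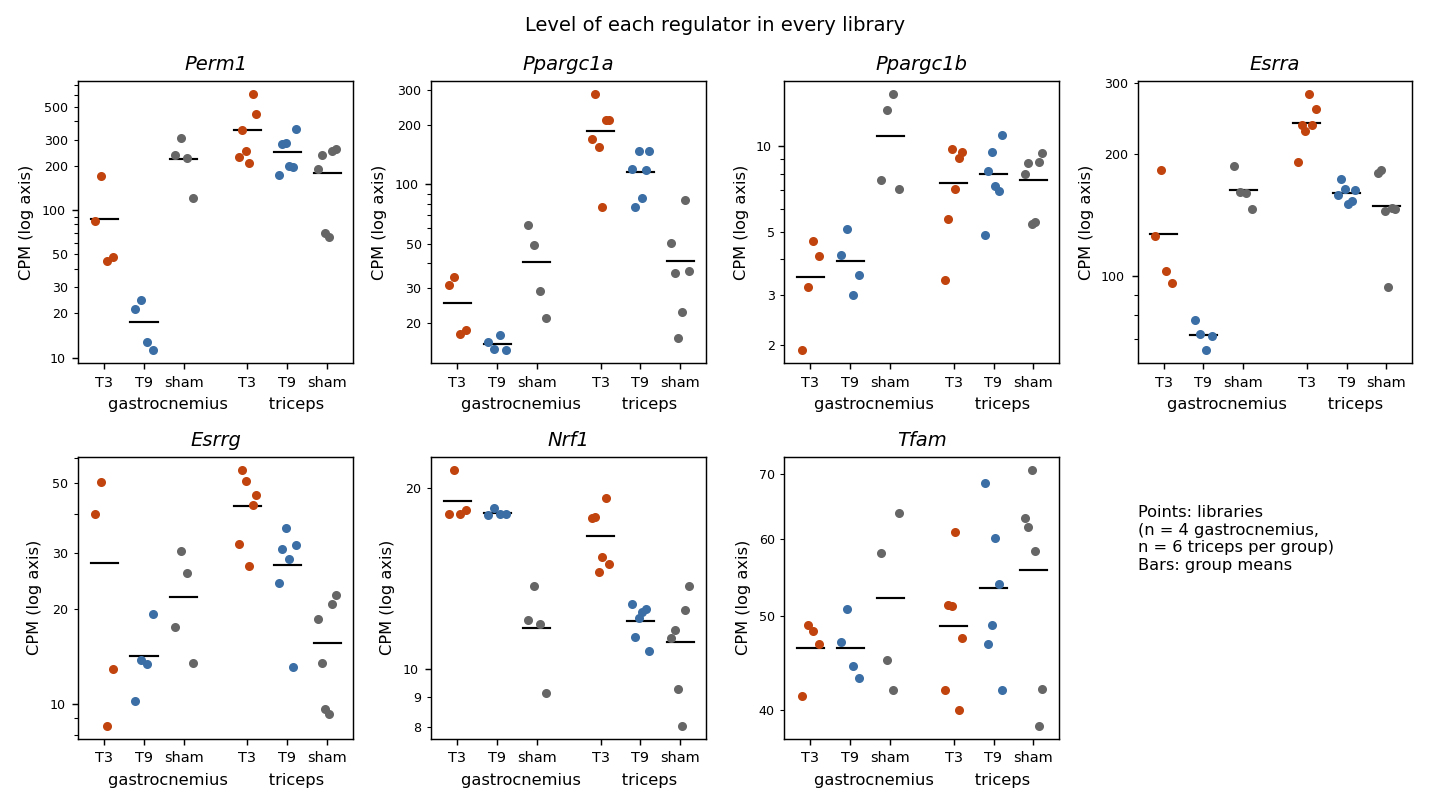
Level of each of the 7 regulators in every library, in CPM on a log axis, for T3, T9 and sham in gastrocnemius (n = 4 per group) and triceps (n = 6 per group). Points are libraries and bars are group means; Perm1 in gastrocnemius T9 sits between 11.2 and 24.5 CPM, below all other libraries, and Ppargc1a is highest in triceps T3.

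Ppargc1a encodes PGC-1α, the coactivator best known for mitochondrial biogenesis. In gastrocnemius it stood at 31.0, 34.2, 17.6 and 18.4 CPM after T3, at 16.02, 14.8, 17.3 and 14.6 CPM after T9, and at 62.7, 49.4, 29.1 and 21.1 CPM in sham. The T9 libraries lay close together below each sham library, and T3 overlapped with sham. After T9 it was 2.38-fold lower than in sham (-1.25 ± 0.31, adjusted p = 0.0073). With the library median as a covariate the change was no smaller but was not called (-1.31, adjusted p = 0.14). After T3 the value was -0.62 ± 0.31 (adjusted p = 0.13), and it passed the threshold with the libraries centred (-0.89, adjusted p = 0.049) and without gastrocnemius sham replicate 4 (-0.89, adjusted p = 0.021).

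In triceps, Ppargc1a rose after T3. It ranged from 76.6 to 287.1 CPM after T3 (median 191.0), from 77.2 to 148.2 CPM after T9 (median 119.1) and from 16.8 to 83.6 CPM in sham (median 36.0). In both injury groups, 5 of 6 libraries were above the highest sham library. T3 was 4.81-fold higher than sham (2.27 ± 0.31, adjusted p = 9.9e-05), and 14 genes of 11249 had a larger rise. The T9 value was 1.65 ± 0.31 (limma adjusted p = 0.074), which did not pass the threshold of 0.05, and 6 genes had a smaller p in that comparison. Without triceps sham replicate 5, the library at 83.6 CPM, its adjusted p was 0.035 with a log2 difference of 1.85.

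Ppargc1b, on chromosome 18, encodes the paralog PGC-1β and was lower in gastrocnemius after both injuries. Its levels were 1.92, 3.19, 4.65 and 4.09 CPM after T3, 4.13, 5.13, 3.00 and 3.51 CPM after T9, and 7.59, 13.4, 15.2 and 7.09 CPM in sham. No injured library reached the lowest sham library. The changes were -1.63 ± 0.31 after T3 (adjusted p = 0.0019) and -1.40 ± 0.31 after T9 (adjusted p = 0.0044), on 35 to 326 reads per gastrocnemius library. In triceps its group means were 7.40 ± 2.56 CPM after T3, 7.94 ± 2.11 CPM after T9 and 7.61 ± 1.81 CPM in sham (SD, n = 6 each), with differences of -0.10 ± 0.23 and 0.05 ± 0.23 from sham for T3 and T9 (adjusted p = 0.78 and 0.92).

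Esrra encodes ERRα, the receptor through which PGC-1 reaches many respiratory genes. In gastrocnemius it stood at 125.7, 182.9, 102.8 and 96.1 CPM after T3, at 77.9, 71.9, 65.7 and 71.3 CPM after T9, and at 186.9, 160.9, 159.9 and 146.0 CPM in sham. The T9 libraries were below all others of the muscle, and T3 replicate 2 lay within the sham range. After T9 it was 2.27-fold lower than in sham (-1.18 ± 0.18, adjusted p = 0.00042). After T3 the value was -0.41 ± 0.18 (adjusted p = 0.094), or -0.68 with the libraries centred (adjusted p = 0.023) and -0.60 without T3 replicate 2 (adjusted p = 0.011). The difference between T3 and T9 was 0.78 ± 0.18 (adjusted p = 0.047), a call lost without any 1 of the T3 replicates 1 and 2, the 4 T9 replicates or the sham replicates 1 and 3 (adjusted p = 0.056 to 0.15). Esrra shares 73 exonic bases with Trmt112 on the opposite strand. The libraries were stranded, but no source names the strand setting of the counting, so reads there may belong to either gene.

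In triceps, Esrra ranged from 190.6 to 281.3 CPM after T3 (median 235.5), from 150.6 to 173.4 CPM after T9 (median 160.9) and from 94.0 to 182.4 CPM in sham (median 146.9). All 6 T3 libraries were above all T9 and all sham libraries. The difference was 0.70 ± 0.14 against sham (adjusted p = 0.0025) and 0.56 ± 0.14 against T9 (adjusted p = 0.022). With the libraries centred it was 0.46 against sham (adjusted p = 0.050) and 0.50 against T9 (adjusted p = 0.058), neither of which passed, and without T9 replicate 5 the second was 0.54 (adjusted p = 0.053). T9 and sham differed by 0.14 ± 0.14 (adjusted p = 0.66).

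Esrrg encodes ERRγ, a receptor enriched in oxidative muscle. In triceps it ranged from 27.3 to 55.3 CPM after T3 (median 44.3), from 13.1 to 36.1 CPM after T9 (median 30.0) and from 9.33 to 22.2 CPM in sham (median 16.02). Every T3 library was above every sham library, and T3 was 2.78-fold higher (1.48 ± 0.27, adjusted p = 0.0010). After T9 the value was 0.83 ± 0.27 (adjusted p = 0.31), with 5 of 6 libraries above the highest sham library. In gastrocnemius the T3 libraries were split, at 39.9, 50.7, 8.53 and 12.9 CPM, against 17.6, 30.5, 26.05 and 13.5 CPM in sham. The T9 libraries held 10.3, 13.8, 13.4 and 19.2 CPM. Neither difference from sham passed (0.06 ± 0.48 after T3, adjusted p = 0.93, and -0.59 ± 0.48 after T9, adjusted p = 0.32).

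Nrf1, the transcription factor of respiratory genes, was higher after injury in gastrocnemius. It stood at 18.1, 21.5, 18.1 and 18.4 CPM after T3, at 18.1, 18.5, 18.1 and 18.1 CPM after T9, and at 12.1, 13.8, 11.9 and 9.13 CPM in sham. No sham library reached an injured one. The changes were 0.71 ± 0.15 after T3 (adjusted p = 0.0027) and 0.65 ± 0.15 after T9 (adjusted p = 0.0043). The median of all genes moved the same way, and with the libraries centred the change was 0.44 after T3 (adjusted p = 0.018) and 0.25 after T9 (adjusted p = 0.14), so the T9 call was lost. With the library median as a covariate neither passed (0.48 after T3, adjusted p = 0.064, and 0.32 after T9, adjusted p = 0.34).

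In triceps, Nrf1 ranged from 14.5 to 19.2 CPM after T3 (median 16.6), from 10.7 to 12.8 CPM after T9 (median 12.3) and from 8.05 to 13.8 CPM in sham (median 11.5). The T3 libraries were above all others of the muscle. The difference was 0.60 ± 0.13 against sham (adjusted p = 0.0038) and 0.46 ± 0.13 against T9 (adjusted p = 0.039). Centred, it was 0.36 against sham (adjusted p = 0.054) and 0.40 against T9 (adjusted p = 0.058), and neither passed. The T3 against T9 call was also lost without any 1 of 9 libraries: sham replicate 1, T3 replicates 1, 2 and 5, and T9 replicates 2, 3, 4, 5 and 6 (adjusted p = 0.051 to 0.11). T9 and sham differed by 0.14 ± 0.13 (adjusted p = 0.64).

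Tfam, the packaging and transcription factor of mitochondrial DNA, had the narrowest range of group means on the log2 scale. In gastrocnemius it averaged 46.3 ± 3.43 CPM after T3, 46.3 ± 3.42 CPM after T9 and 52.2 ± 10.4 CPM in sham (SD, n = 4 each). Triceps means were 48.8 ± 7.57 CPM after T3, 53.4 ± 9.72 CPM after T9 and 55.7 ± 12.7 CPM in sham (SD, n = 6 each). The 4 differences from sham lay between -0.17 and -0.05 with adjusted p-values of 0.36 to 0.86. After T9 in gastrocnemius it was lower with the libraries centred (-0.55, adjusted p = 0.048).

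**Figure D2:**
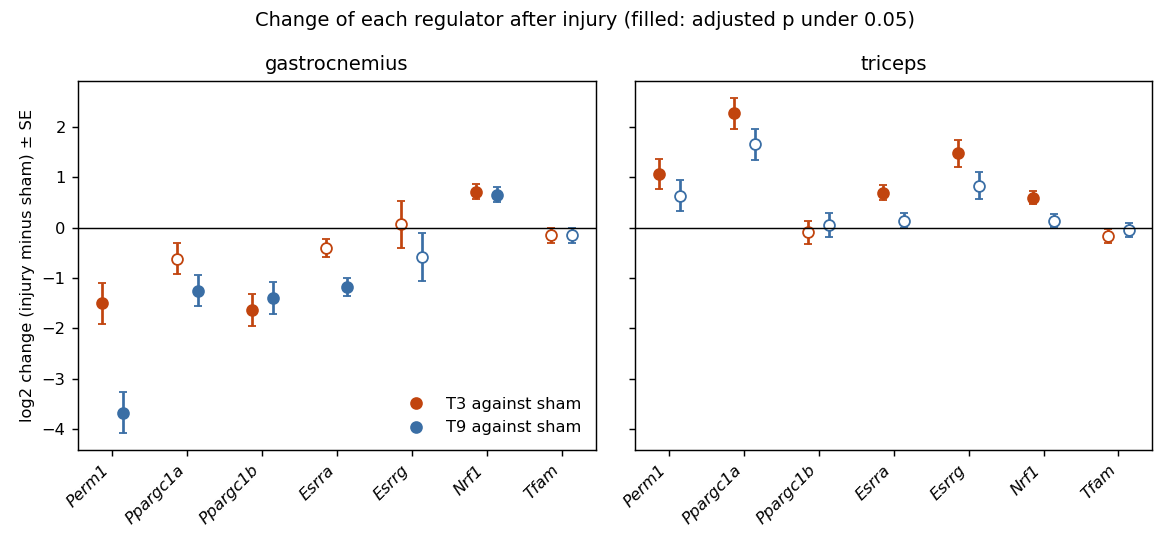
Log2 change of each regulator from sham, with its standard error, after T3 and after T9 in gastrocnemius (left) and triceps (right). Filled points passed limma's adjusted p of 0.05; Perm1 in gastrocnemius T9 reaches -3.67 and Ppargc1a in triceps T3 reaches 2.27, while Tfam stays near 0.

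Counted by comparison, 2 members were lower and 1 higher in gastrocnemius after T3, where 6.65% of all genes tested were lower and 27.1% higher. After T9, 4 were lower and 1 higher, where 5.67% of all genes were lower and 37.6% higher. Between T3 and T9 in gastrocnemius, 2 members were higher after T3, against 0.729% of all genes. In triceps, 5 members were higher after T3 and 0 lower, where 19% of all genes were higher and 4.32% lower. After T9 in triceps none of the 7 was called by limma and 3 had an unadjusted p under 0.05, Perm1 among them. Only 0.00889% of all genes, 1 gene, was called there, while 1185 genes had an unadjusted p under 0.05. Between T3 and T9 in triceps, 2 members were higher after T3, where 4.95% of all genes were. The comparisons of T3 and of T9 with sham in a muscle use the same sham libraries, so their changes are not independent. The members were chosen with earlier results of these data known, so their counts beside the shares of all genes are no independent test. In these whole-muscle samples, fewer cells of a type and less RNA per cell cannot be told apart.

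Because 12 mice, as inferred from the descriptions, gave both muscles, the size of the change could be compared between the muscles. The log2 level of Perm1 in gastrocnemius minus that in triceps of the same mouse lay between -2.40 and -1.04 after T3, between -4.46 and -3.01 after T9 and between 0.30 and 1.69 in sham, with 4 mice each. For Ppargc1a it lay between -3.07 and -2.12 after T3, between -3.09 and -2.38 after T9 and between -0.11 and 0.79 in sham. All injured mice thus had less of both in gastrocnemius, and their differences did not overlap with those of sham mice. Tested with the mouse as a block, the T3 effect in gastrocnemius minus that in triceps was -2.59 ± 0.49 for Perm1 (limma adjusted p = 0.0049), -3.04 ± 0.43 for Ppargc1a (adjusted p = 0.00027) and -1.08 ± 0.24 for Esrra (adjusted p = 0.017). These 3 members compare with 1.56% of all genes whose T3 effect was lower in gastrocnemius. Without the 4 libraries of low median, the Esrra difference was -0.83 (adjusted p = 0.11), and it was also lost without gastrocnemius sham replicate 2 or T3 replicate 4, or triceps sham replicate 4 or T3 replicate 3 (adjusted p = 0.053 to 0.072), and without the mouse block (adjusted p = 0.080). Ppargc1b stood at -1.47 ± 0.39 (adjusted p = 0.054) and passed with the libraries centred (-1.43, adjusted p = 0.016), with quantile normalization (-1.44, adjusted p = 0.011), with an offset of 1 CPM (-1.26, adjusted p = 0.050) and with the median covariate (-1.41, adjusted p = 0.0031). It also passed without any 1 of 7 libraries: gastrocnemius sham replicates 1 and 3 and T3 replicate 3, and triceps sham replicates 1 and 3, T3 replicate 1 and T9 replicate 1 (adjusted p = 0.021 to 0.049). Esrrg stood at -1.63 ± 0.51 (adjusted p = 0.11) and passed with the median covariate (-1.61, adjusted p = 0.026) and without gastrocnemius T3 replicate 1 or 2 (adjusted p = 0.048 and 0.039).

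The T9 effect was lower in gastrocnemius for 5 of 7 members, against 3.43% of all genes. The difference was -4.60 ± 0.49 for Perm1 (adjusted p = 4.7e-06), -3.10 ± 0.43 for Ppargc1a (adjusted p = 8.3e-05), -1.34 ± 0.24 for Esrra (adjusted p = 0.0011), -1.87 ± 0.51 for Esrrg (adjusted p = 0.022) and -1.51 ± 0.39 for Ppargc1b (adjusted p = 0.017). Without the 4 libraries of low median, Esrrg was at -1.74 (adjusted p = 0.087). Its call was lost without gastrocnemius sham replicate 2 or T9 replicate 1, or triceps sham replicate 2 or 4 or T9 replicate 3 (adjusted p = 0.053 to 0.088). That of Ppargc1b was lost without gastrocnemius sham replicate 2 or T9 replicate 3, or triceps sham replicate 4 or T9 replicate 3 (adjusted p = 0.051 to 0.073). Nrf1 differed by -0.00 ± 0.17 for T3 and 0.36 ± 0.17 for T9, and Tfam by 0.16 ± 0.19 for T3 and 0.04 ± 0.19 for T9, none of which passed. Without sham mouse 3 the same number of members was called in each of these tests, 3 for T3 and 5 for T9. In sham mice themselves, no member differed between gastrocnemius and triceps at the threshold, where 42.0% of all genes did, a share that was unstable: 4728 genes were called with all mice and 86 without sham mouse 3. The closest was Perm1, higher in gastrocnemius by 0.82 ± 0.35 (adjusted p = 0.061), or 0.52 without sham mouse 3 (adjusted p = 0.29). It passed without gastrocnemius sham replicate 4 or T3 replicate 2, or triceps sham replicate 1 or 2 (adjusted p = 0.025 to 0.048). Tfam, at -0.30 ± 0.13 (adjusted p = 0.071), was lower in gastrocnemius with the libraries centred (-0.58, adjusted p = 0.029), with quantile normalization (-0.44, adjusted p = 0.029) and without gastrocnemius sham replicate 4 (-0.41, adjusted p = 0.020). Without that library Ppargc1b and Nrf1 passed too (0.77 and 0.31, adjusted p = 0.043 each), as did Ppargc1b without gastrocnemius sham replicate 1 (adjusted p = 0.042) and Esrrg without triceps sham replicate 1 (adjusted p = 0.043).

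**Figure D3:**
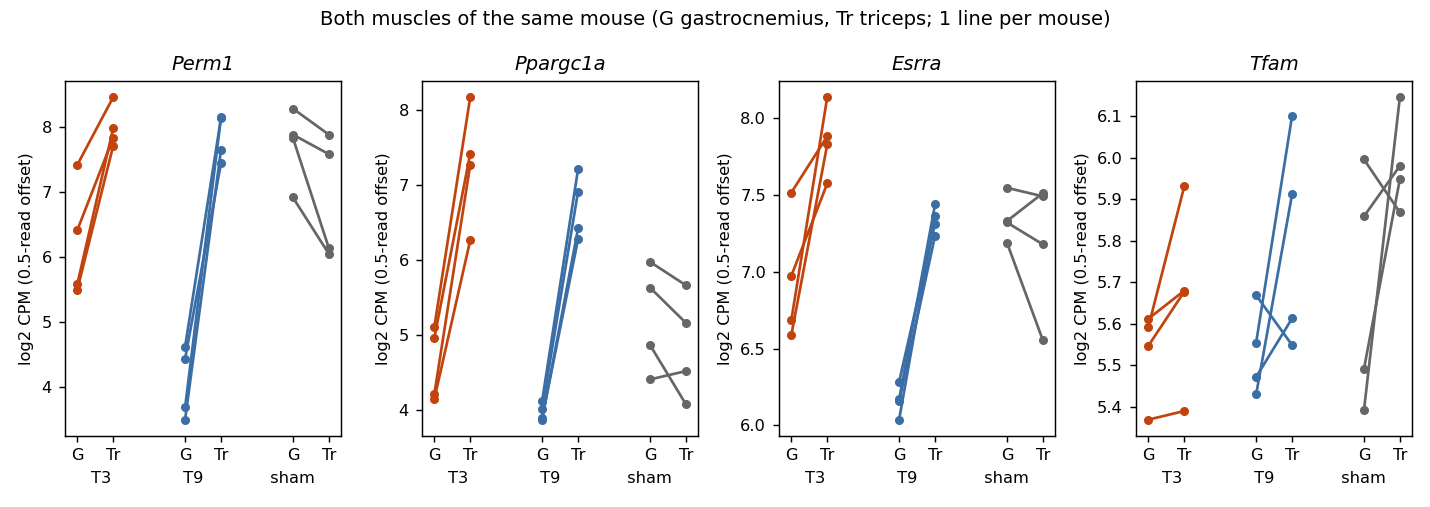
Log2 CPM (0.5-read offset) of Perm1, Ppargc1a, Esrra and Tfam in gastrocnemius (G) and triceps (Tr) of the same mouse, for 4 T3, 4 T9 and 4 sham mice, with 1 line per mouse. Lines for Perm1 and Ppargc1a climb towards triceps in all injured mice, and in sham mice they do so in 0 of 4 for Perm1 and 1 of 4 for Ppargc1a.

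Levels of different members can be compared only per length of their exons. In CPM per kilobase, Perm1 was the most abundant member in triceps after T3, at 89.6 ± 40.2, ahead of Esrra at 54.3 ± 6.97 and Ppargc1a at 28.1 ± 10.7 (SD, n = 6). In gastrocnemius after T9, Perm1 stood at 4.48 ± 1.66 (SD, n = 4), below Esrra at 16.4 ± 1.14 and Tfam at 10.4 ± 0.77. In gastrocnemius of sham mice Perm1 led with 30.8 to 79.5 CPM per kilobase, followed by Esrra with 37.2 ± 3.89 and Tfam with 11.8 ± 2.35 (SD, n = 4). Nrf1 was low in all groups, between 1.08 ± 0.20 in triceps sham and 1.85 ± 0.16 in gastrocnemius T3. By mean log2 level, Perm1, Ppargc1a, Esrra and Esrrg were all highest in triceps T3 and lowest in gastrocnemius T9. For Ppargc1b the lowest group was gastrocnemius T3, and for Nrf1 it was triceps sham. Most neighbouring groups in these orders overlapped, and 6 pairs did not. Gastrocnemius T9 lay below gastrocnemius T3 for Perm1, Ppargc1a and Esrra, for Ppargc1a with 17.6 CPM as the lowest T3 and 17.3 CPM as the highest T9 library. Triceps T9 lay above gastrocnemius sham for Ppargc1a, triceps T3 above gastrocnemius sham for Esrra, and triceps T3 above triceps T9 for Nrf1.

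The pattern most like Perm1 over the 30 libraries was looked for among 10239 genes by Pearson's r of log2 values. Lynx1 came first (r = 0.93), then Agt (0.92), Dmac2 (0.91), Esrra (0.91), Rcan2 (0.90), Ckmt2 (0.90), Dhrs11 (0.90) and Cdc42ep2 (0.89). Esrra was thus the fourth gene by likeness, and its r was 0.97 within the 12 gastrocnemius libraries and 0.67 within the 18 triceps libraries. Among deviations from the group means alone it was 0.65. Ppargc1a ranked 54 (r = 0.81), Ppargc1b 191 (0.66) and Esrrg 226 (0.64). Over all libraries r was -0.28 for Nrf1 and -0.01 for Tfam. Within muscles these differed: for Nrf1 r was -0.55 in gastrocnemius, 0.73 in triceps and 0.66 among deviations from the group means, and for Tfam it was 0.25, -0.66 and -0.50. The genes most like the others were Lamb3, Zdhhc23 and Ptgr2 for Ppargc1a, and Rasgrp3, Paqr9 and Slc25a47 for Ppargc1b. They were Hadh, Perm1 and Dhrs11 for Esrra, AW011738, Pank4 and Dnaja4 for Esrrg, Gnl2, Gars and G6pc3 for Nrf1, and Cdc26, Vbp1 and Sar1b for Tfam. These values describe 30 libraries that share their groups, 12 mice and the differences in library median, and they carry no test.

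**Figure D4:**
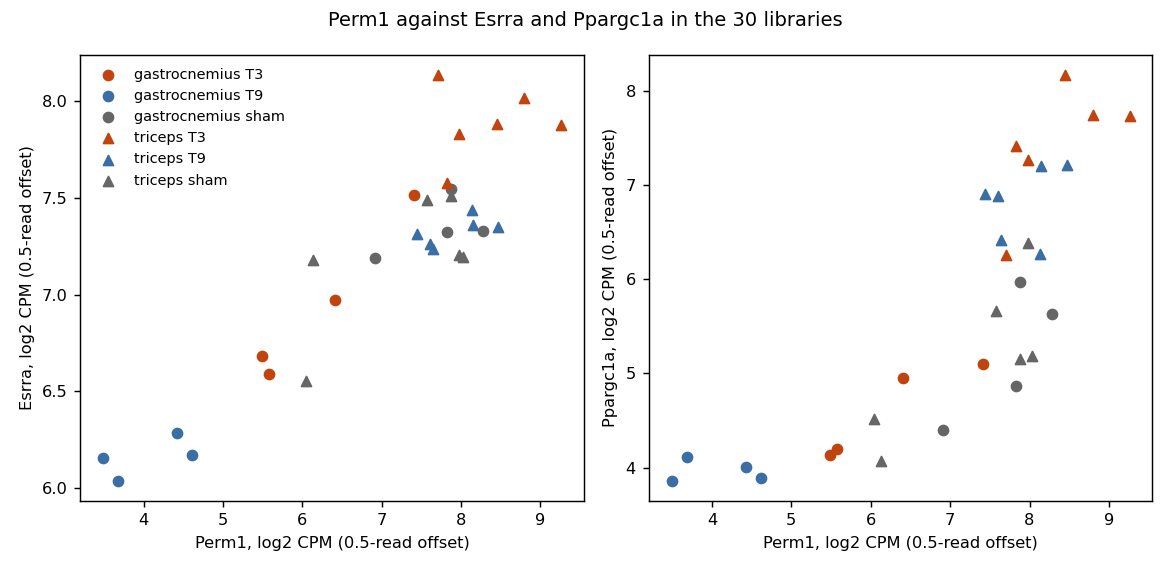
Perm1 against Esrra (left) and against Ppargc1a (right), log2 CPM (0.5-read offset), 1 point per library; circles are gastrocnemius, triangles triceps. Gastrocnemius T9 libraries lie at the low end of both axes and triceps T3 libraries at the high end (r = 0.91 for Esrra and 0.81 for Ppargc1a over 30 libraries).

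The genes these regulators act on were described from lists. Of 58 nuclear genes of the respiratory chain, 27 were lower and 0 higher in gastrocnemius after T3, with a median change of -0.68 against 0.27 for all genes. After T9, 48 were lower and 0 higher (median -0.83 against 0.40). Cyc1, cytochrome c1 of complex III, averaged 266.6 ± 20.7 CPM after T3, 233.0 ± 20.0 CPM after T9 and 452.5 ± 60.72 CPM in sham (SD, n = 4 each), and changed by -0.76 after T3 and -0.95 after T9 (adjusted p = 0.00086 and 0.00021). Cycs, cytochrome c itself, changed by -1.18 ± 0.29 after T3 (adjusted p = 0.0080). In triceps after T3, 2 of the 58 were higher, Ndufa10 of complex I and Atp5a1 of ATP synthase, and 0 lower, with a median of -0.16 against 0.23 for all genes. Both were lost with the libraries centred. With the library median as a covariate, 3 were lower in gastrocnemius after T3 and 5 after T9, where 888 and 543 of 11248 genes were lower. In triceps after T3 that fit called 14 of the 58 higher, where 1709 of 11249 genes were higher. In the main fit, 6.65% of all genes tested were lower in gastrocnemius after T3 and 5.67% after T9. The 15 genes of the mitochondrial genome fell in 7 cases after T3 and 2 after T9 in gastrocnemius, and 0 passed in triceps after T3. Among them, mt-Co1 of complex IV changed by -0.45 ± 0.15 after T3 and -0.41 ± 0.15 after T9 (adjusted p = 0.033 and 0.038). With the libraries centred, 12 and 10 were lower in gastrocnemius, where 1627 and 1398 of 11247 genes were. With the median covariate 1 and 0 were lower, where 888 and 543 of 11248 genes were.

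The list of PGC-1 and ERR targets in muscle fuel use held 30 genes. In gastrocnemius after T3, 7 were higher and 8 lower (median -0.05), and after T9, 0 were higher and 15 lower (median -0.58). With the median covariate the counts were 1 higher and 7 lower after T3 and 8 lower after T9. Of 11248 genes, that fit called 1191 higher and 888 lower after T3, and 543 lower after T9. In triceps after T3, 17 of the 30 were higher and 0 lower (median 0.76). In the main fit, 27.1% of all genes were higher and 6.65% lower in gastrocnemius after T3, and 37.6% and 5.67% after T9. The 7 of 30 higher there after T3 were thus no more than the background. In triceps after T3, 19% of all genes were higher. Bdh1, the ketone body dehydrogenase of mitochondria, averaged 2.42 ± 1.605 CPM after T3, 1.40 ± 0.44 CPM after T9 and 36.8 ± 11.4 CPM in sham in gastrocnemius (SD, n = 4 each). In triceps it averaged 92.4 ± 38.9 CPM after T3, 39.7 ± 13.9 CPM after T9 and 16.6 ± 8.21 CPM in sham (SD, n = 6 each). Its T3 change from sham was -4.05 ± 0.38 in gastrocnemius (adjusted p = 1.1e-05) and 2.60 ± 0.34 in triceps (adjusted p = 7.0e-05). Slc25a34, a mitochondrial carrier, rose in triceps after T3 by 2.59 ± 0.27 (adjusted p = 8.3e-06), and so did the fatty acid transporter Cd36 by 1.25 ± 0.17 (adjusted p = 8.6e-05). Ckmt2, the mitochondrial creatine kinase of muscle, changed in gastrocnemius after T9 by -1.64 ± 0.20 (adjusted p = 0.00010), and Lpl, lipoprotein lipase, by -1.71 ± 0.18 (adjusted p = 2.8e-05). The genes higher in gastrocnemius after T3 included Acadl and Acadvl, acyl-CoA dehydrogenases of fatty acid oxidation, at 0.64 ± 0.13 and 0.73 ± 0.20 (adjusted p = 0.0032 and 0.014).

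The 20 genes of the TCA cycle and pyruvate entry were lower in 3 cases and higher in 1 after T3 in gastrocnemius, and lower in 6 and higher in 1 after T9. With the libraries centred, 11 were lower after T3 and 15 after T9, where 1627 and 1398 of 11247 genes were lower. In triceps, 10 of the 20 were higher after T3 and 0 lower. With the libraries centred 6 were higher, where 1140 of 11249 genes were. Before centring, 6.65% of all genes were lower and 27.1% higher after T3 in gastrocnemius, and 5.67% and 37.6% after T9. In triceps 19% were higher after T3 and 4.32% lower. Mdh1, the cytosolic malate dehydrogenase, averaged 289.1 ± 39.2 CPM after T3, 204.3 ± 21.2 CPM after T9 and 482.1 ± 118.0 CPM in sham in gastrocnemius (SD, n = 4 each). In triceps it averaged 1132 ± 352.3 CPM after T3, 934.1 ± 112.2 CPM after T9 and 517.3 ± 81.1 CPM in sham (SD, n = 6 each). Its T9 effect in gastrocnemius minus that in triceps was -2.20 ± 0.27 (adjusted p = 1.7e-05), and that of Idh2, the mitochondrial isocitrate dehydrogenase, -2.48 ± 0.27 (adjusted p = 4.7e-06).

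**Figure D5:**
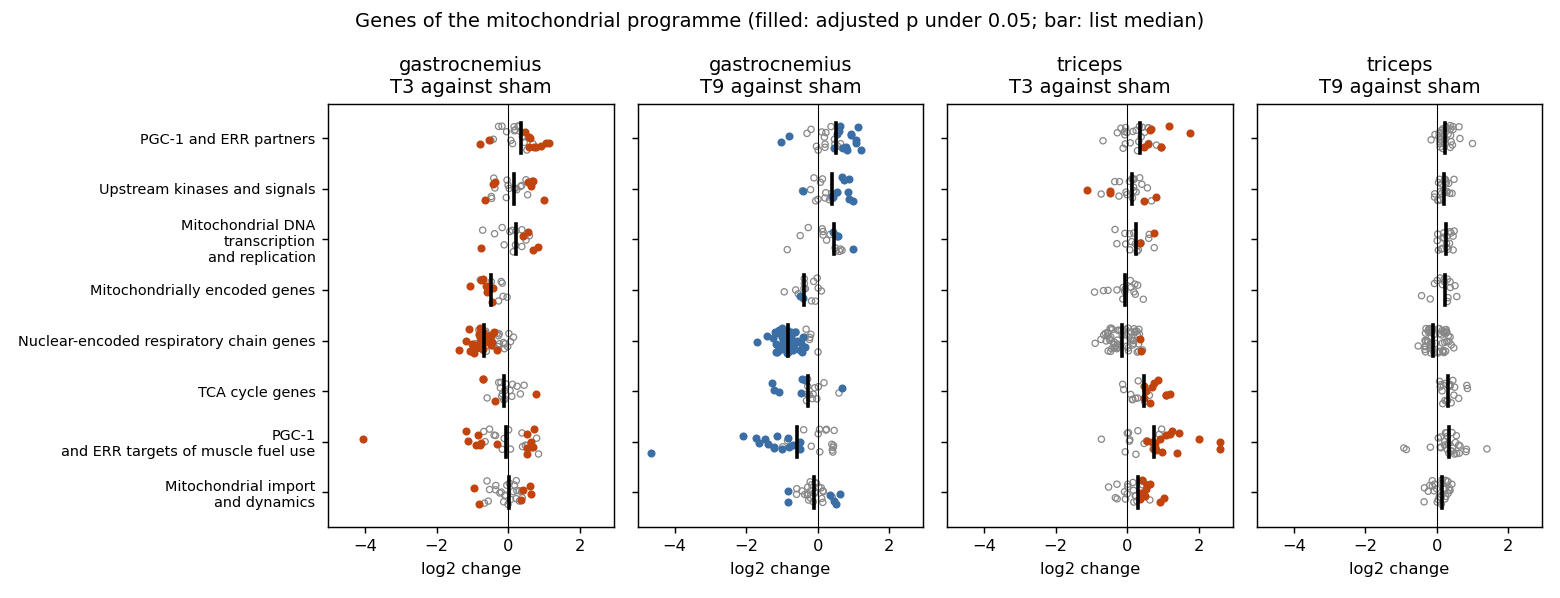
Log2 change of every gene of 8 lists against sham in gastrocnemius after T3 and T9 and in triceps after T3 and T9. Filled points passed limma's adjusted p of 0.05 and bars are list medians; the bar for nuclear-encoded respiratory chain genes is at -0.68 and -0.83 in gastrocnemius, and that for fuel use targets is at 0.76 in triceps after T3.

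Of 30 partners of PGC-1 and the ERRs, 9 were higher and 2 lower in gastrocnemius after T3, 13 higher and 2 lower after T9, and 8 higher and 0 lower in triceps after T3. The medians were 0.37, 0.51 and 0.37, against 0.27, 0.40 and 0.23 for all genes. The shares of all genes higher were 27.1%, 37.6% and 19%, so the counts of higher partners in gastrocnemius were near the background. Ppara, the fatty acid receptor that PGC-1α coactivates, averaged 5.29 ± 1.81 CPM after T3, 3.58 ± 0.88 CPM after T9 and 7.47 ± 2.37 CPM in sham in gastrocnemius. In triceps it averaged 21.5 ± 9.56 CPM after T3, 13.1 ± 6.86 CPM after T9 and 7.45 ± 5.24 CPM in sham. It was lower in gastrocnemius after T9 (-1.03 ± 0.30, adjusted p = 0.015) and higher in triceps after T3 (1.75 ± 0.39, adjusted p = 0.0044), and both its T3 and its T9 effects were lower in gastrocnemius than in triceps (-2.41 and -2.53, adjusted p = 0.0034 and 0.00076). Sirt3, a mitochondrial deacetylase, was lower in gastrocnemius after T3 (-0.80 ± 0.16, adjusted p = 0.0021) and T9 (-0.81 ± 0.16, adjusted p = 0.0019). Esrrb, the third ERR, was higher in triceps after T3 (1.17 ± 0.29, adjusted p = 0.0083).

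Among 23 upstream kinases and signals, 5 were higher and 3 lower in gastrocnemius after T3, 9 higher and 1 lower after T9, and 2 higher and 3 lower in triceps after T3. For all genes tested, 27.1%, 37.6% and 19% were higher in these comparisons, so the counts of higher genes were near the background or below it. Crtc2, a coactivator of CREB, was higher after T3 in gastrocnemius (0.99 ± 0.25, adjusted p = 0.0086) and in triceps (0.80 ± 0.24, adjusted p = 0.025). Prkag3, the AMPK subunit of glycolytic muscle, was lower in triceps after T3 (-1.11 ± 0.27, adjusted p = 0.0062). Smyd1, a muscle methyltransferase that drives Perm1 and Ppargc1a in the mouse heart, was lower in gastrocnemius after T3 (-0.42 ± 0.14) and T9 (-0.40 ± 0.14), both with an adjusted p of 0.033. Of 18 genes that copy and transcribe mitochondrial DNA, 4 were higher and 1 lower after T3 in gastrocnemius, 4 higher and 0 lower after T9, and 2 higher in triceps after T3, shares of higher genes below those of all genes in each case. Tfb2m, the partner of Tfam at mitochondrial promoters, was higher by 0.43 ± 0.11, 0.44 ± 0.11 and 0.36 ± 0.13 in those comparisons (adjusted p = 0.011, 0.0088 and 0.049), against medians of all genes of 0.27, 0.40 and 0.23. Of 30 genes of mitochondrial import and dynamics, 4 were higher and 2 lower in gastrocnemius after each injury. With the libraries centred, 4 were lower after T3 and 7 after T9, where 1627 and 1398 of 11247 genes were lower. The 4 of 30 after T3 were thus near the background. In the main fit, the share of higher genes in gastrocnemius was below that of all genes after each injury. In triceps after T3, 11 were higher and 0 lower, where 19% of all genes were higher. With the libraries centred 3 were higher, where 1140 of 11249 genes were. Tomm40, the import pore, rose in triceps after T3 by 1.03 ± 0.14 (adjusted p = 7.3e-05). In triceps after T9, limma called 0 genes of any of these 8 lists.

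Markers of other cells and of fibre type moved with some groups. The 8 satellite cell markers measured, of 10, summed to 147.9 to 271.7 CPM after T3 and 247.0 to 277.8 CPM after T9 in gastrocnemius. In sham mice they summed to 56.2 to 88.8 CPM there, so the injured groups did not overlap with sham. Pax7 and Calcr were not analysed here. Of the 8, only Sdc4 and Cdh15 were called after T3 (1.61 ± 0.18 and 1.35 ± 0.20, limma adjusted p = 4.3e-05 and 0.00032). Both were also higher in triceps after T3. After T9, Myf5 and Myod1 were called as well as these. Chodl averaged 6.78 CPM after T3, 6.98 CPM after T9 and 6.77 CPM in sham. The 10 slow and oxidative fibre markers summed to 502.7 to 863.8 CPM after T3, 470.9 to 918.4 CPM after T9 and 277.8 to 1442 CPM in sham, and 2 and 3 of them were lower after T3 and T9. Myl2, a slow myosin light chain, changed by -2.31 ± 0.46 after T3 and -3.53 ± 0.46 after T9 (limma adjusted p = 0.0023 and 0.00015). Myh2, a myosin heavy chain of the myofibre list, changed by -1.64 ± 0.46 and -1.74 ± 0.46 (adjusted p = 0.015 and 0.0099). Its T3 and T9 effects were lower in gastrocnemius than in triceps (-3.57 and -3.61, adjusted p = 0.0032 and 0.001). Of the same list, Mylpf, Pvalb and Ckm were lower in gastrocnemius after both injuries and in triceps after T3. Des was higher in gastrocnemius after both injuries, and Myh1 after T3. In triceps, the 8 macrophage markers measured, of 10, summed to 31.0 to 75.8 CPM after T3 and 18.5 to 999.6 CPM in sham. Cd68 was the 1 of the 8 higher after T3 (3.78 ± 0.69, limma adjusted p = 0.00095). In gastrocnemius they summed to 41.4 to 51.5 CPM after T3, 37.0 to 56.9 CPM after T9 and 17.8 to 61.9 CPM in sham. Cd68 was higher there after T3 (3.01 ± 0.47, adjusted p = 0.00041) and T9 (3.22 ± 0.47, adjusted p = 0.00031), as were Mrc1 (0.84 ± 0.24, adjusted p = 0.016) and Csf1r (0.75 ± 0.23, adjusted p = 0.019) after T9. Of 10 fibroblast markers, 5 were lower in gastrocnemius after T3, 3 after T9 and 3 in triceps after T3, with 0 higher. Their sums ran from 302.8 to 410.1 CPM after T3, 342.9 to 458.9 CPM after T9 and 347.4 to 492.1 CPM in sham gastrocnemius, and from 161.6 to 375.5 CPM after T3 and 218.3 to 1441 CPM in sham triceps. Col3a1, a collagen chain, changed by -1.49 ± 0.21 after T3 and -0.86 ± 0.21 after T9 in gastrocnemius (adjusted p = 0.00023 and 0.0072), and by -1.95 ± 0.53 after T3 in triceps (adjusted p = 0.014). Endothelial, adipocyte, Schwann cell and erythroid markers had at most 1 gene called per direction in any of these comparisons. The top macrophage sum among triceps sham libraries belongs to replicate 4, which also had the lowest Perm1, Esrra, Esrrg and Nrf1 levels of its group. The part of these markers in the changes of the 7 regulators was not tested.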

How the data were processed

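The 30 libraries were made from polyA RNA with a stranded kit, per the labels' protocols. Per the submitters' processing notes, their tools were HISAT2 2.1.0, featureCounts, Subread 1.5.1 and limma, on GRCm38. No source names the annotation release, the strand setting or a filter. The authors deposited log2 CPM, and dividing out the offset of 0.5 reads gave whole reads for 100% of values within 0.01 reads, so each library was scaled to its total alone. Limma on the deposited log2 values was the planned test, with a test for counts foreseen only if counts had been deposited.

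Limma 3.58.1 in R 4.3.3 (trended empirical Bayes, two-sided) was run on genes at a log2 value of 0 or more in 4 or more libraries. One model held the 12 gastrocnemius libraries and another the 18 triceps libraries, the second with a term for the prefix 57 or 60 of the description, which no source explains. The model across muscles held the 24 libraries of 12 mice, with mouse as a block (correlation 0.277). Mouse identity was inferred from the descriptions. In 11 of 12 mice the muscles deviated together (r over 0.1). Same-numbered libraries of different mice within a muscle reached r = 0.84, so such an r does not establish the pairing. P-values were adjusted by the Benjamini-Hochberg method across genes (threshold 0.05). Since nothing in the labels states how replicates were drawn, they measure the spread between these samples. No 2 replicates agreed within sampling noise (chi-square per degree of freedom 9.78 to 621). The models were tested on simulated data.

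The 7 members and the gene lists were chosen with earlier results of these data known. Genes named from a list are among the 4 per direction of smallest adjusted p in a comparison. Genes most like a member are the 8 (Perm1) or 3 (others) of highest r with a mean log2 value of at least 1 and a named symbol. Exon lengths and gene coordinates are from GENCODE M21, and figures were drawn with matplotlib 3.10.9. Alternatives were other scalings, offsets, filters, variance models, library sets and blocks, and leaving out each library. A covariate for library median, the fits without the 4 libraries of lowest median and those without sham mouse 3 were added after seeing the data.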

Additional observations from a re-analysis of the deposited data

Results flagged for a closer look

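In the main fit, 8 effects of injury on a member differed between the 2 muscles by the test of the difference itself. The T3 effect in gastrocnemius minus that in triceps was -2.59 for Perm1, -3.04 for Ppargc1a and -1.08 for Esrra. The T9 effect differed in the same direction by -4.60 for Perm1, -3.10 for Ppargc1a, -1.51 for Ppargc1b, -1.34 for Esrra and -1.87 for Esrrg, all in log2 units. The calls of Perm1 and Ppargc1a, and that of Esrra for T9, held in every alternative fit. Those of Esrra for T3 and of Ppargc1b and Esrrg for T9 were lost in some (highest limma adjusted p = 0.11, 0.074 and 0.088).

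In 3 of 42 groups of member values, 1 library stood apart from the others, and chance flags about 1 in 20 groups. For Esrra in triceps sham, replicate 4 lay below the rest by 0.652 of the group's range. For Nrf1 in gastrocnemius, replicate 2 lay above the rest by 0.913 of the range after T3 and by 0.915 after T9. In the T9 group that gap is 18.1 against 18.5 CPM.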

How the results depend on the processing

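Of 1869 recomputed member values, 1769 kept their side of the threshold, 65 lost their call, 35 newly passed and 0 called values changed sign. Values of at most 0.23 in size changed sign in 64 cases without a call. The number of members called moved as follows. In gastrocnemius T3 against sham it went to 5 with centring or quantile normalization and to 1 with the library median as a covariate, from 3. In gastrocnemius T9 against sham that covariate gave 3 in place of 5. Between T3 and T9 in gastrocnemius 1 was called in place of 2 with robust variances and with the replicate block (limma adjusted p for Esrra 0.065), and 0 to 2 on leaving out 1 library. In triceps T3 against sham, centring and the use of number 60 alone gave 3 in place of 5. Between T3 and T9 in triceps, 2 became 0 with centring, quantile normalization or number 60 alone, 1 with the replicate block or without the number term, and 0 to 2 without 1 library. In triceps T9 it was 0, or 1 without sham replicate 5, and between sham muscles 0, 1 with centring or quantile normalization, or 0 to 4 without 1 library. The T3 effect between muscles gave 5 in place of 3 with the median covariate, 4 with centring and 2 without the mouse block or without the 4 libraries of low median, and the T9 effect 3 in place of 5 without the mouse block and 3 to 5 without 1 library. The causes were not tested. For members, the replicate block also ended the call of Nrf1 between T3 and T9 in triceps (limma adjusted p = 0.066) and changed no other; same-numbered libraries within a muscle correlated at -0.63 to 0.84, so the number does not pair them.

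Over all genes, centring gave 1641 higher and 1627 lower genes in gastrocnemius T3 in place of 3046 and 748, 1247 and 1398 in gastrocnemius T9 in place of 4226 and 638, and 1140 and 894 in triceps T3 in place of 2138 and 486. Counts of genes called moved by over 1.5 times in these cases. In gastrocnemius, T3 against sham gave 2079 with the median covariate and 2356 with the 2 groups fitted alone, in place of 3794. T9 against sham gave 2645 with centring, 2711 with quantile normalization and 1388 with the covariate, in place of 4864. T3 against T9 gave 563 without the 4 libraries of low median, 423 with the covariate, 1060 with the 2 groups alone, 70 with the replicate block and 11 to 563 without 1 library, in place of 183. In triceps, number 60 alone gave 1247 in place of 2624 for T3 against sham and 50 in place of 855 for T3 against T9, where the covariate gave 2212 and leaving out 1 library 539 to 1066. T9 against sham gave 0 with the replicate block or voom weights, 15 with the covariate, 2 with centring, quantile normalization or the 2 groups alone, and 0 to 7 without 1 library, in place of 1. The T3 effect between muscles gave 1150 with the covariate, 75 without the mouse block, 393 with quantile normalization, 121 without the 4 libraries, 369 without sham mouse 3 and 95 to 367 without 1 library, in place of 212. The T9 effect gave 3599, 447 and 2119 with the covariate, without the mouse block and without sham mouse 3, and 539 to 1929 without 1 library, in place of 961. Sham muscles gave 404 without the 4 libraries, 104 with the covariate, 95 without the mouse block, 86 without sham mouse 3 and 75 to 6354 without 1 library, in place of 4728. Depth limits Ppargc1b most, with 35 reads in its lowest library.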
